A study of Sycon ciliatum with 26 samples.

Results

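The last stretch of regeneration in the calcareous sponge Sycon ciliatum was examined by setting 5 RNA sequencing libraries of days 16 to 24 after cell dissociation against 4 libraries of days 10 to 14, which are 9 of the 26 libraries of the series. The libraries were taken by their time labels and not by any measured value. The side of days 16 to 24 held 3 libraries of days 16 to 18, which carry the stage name PJUV, and 2 libraries of days 21 to 24, which carry the stage name JUV. All 9 libraries came from regenerating structures of the same species, with no other treatment named in the labels. The sample labels give days 10 to 14 for the earlier side, where the series' design text gives days 10 to 12. The labels do not give the number of structures or parent animals behind a library, so p-values measure the spread between libraries, part of which may be technical. The tests of single IDs took that spread from the regenerating libraries of all windows, 25 in the main fit, except where a fit of only the 9 is named.

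Sponges of this group carry flagellated collar cells (choanocytes) that pump and filter water, a covering layer of flat cells (pinacocytes), and cells that secrete spicules of calcium carbonate (sclerocytes). When such a sponge is dissociated, its cells adhere to one another, sort, and build a covering layer, then chambers of choanocytes, spicules and an outflow opening. The final form resembles the juvenile that grows from a settled larva, and the study asked how far both routes are alike. The comparison here concerns the final interval of that sequence.

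Expression was measured as read counts, given here as TMM-scaled CPM (counts relative to the library's total), for 35307 gene IDs of the type MSTRG.n. The files pair these IDs with no gene name, and 0 of them matched the 26717 genes of the RefSeq table of the assembly ocSycCili1.1. Expression differences are therefore described by ID and by group of IDs, with no statement on function. No marker of a cell type or of the juvenile stage could be looked up, so the stage names rest on the labels. Total counts were 11863223 to 12728111 in the libraries of days 16 to 18, 12008134 and 15395912 in those of days 21 to 24, and 11469047 to 12001364 in those of days 10 to 14. Between 26369 and 27141 IDs had at least 1 count in a library. In whole structures, fewer cells of a type and less RNA per cell cannot be told apart.

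Few IDs passed edgeR's adjusted threshold between the juvenile-like stages and days 10 to 14. With the mean of days 16 to 18 and days 21 to 24 set against days 10 to 14 in edgeR's quasi-likelihood test, 55 of 23995 IDs (0.229%) passed at 0.05 after Benjamini-Hochberg adjustment, and these are referred to as called. Of the 55 IDs, 17 (0.0708% of those tested) rose and 38 (0.158%) fell. An unadjusted p under 0.05 was reached by 2748 IDs (11.5%), 1011 higher and 1737 lower. Among the 17 called IDs that rose, the absolute log2 fold change had a median of 2.16 and a range of 0.78 to 4.86. Among the 38 that fell, it had a median of 2.00 and a range of 0.86 to 4.65. With the 3 IDs that never exceeded 3 counts on their low side held at the bound those counts allow, the medians were 2.16 and 1.90. Across all IDs tested, the median absolute log2 fold change was 0.29, and 3649 IDs had one of at least 1, of which 50 were called. The threshold favours IDs with a large fitted change, so the sizes of the called IDs follow in part from the call. A test against a log2 fold change of 1 (edgeR's glmTreat) called 0 IDs, with 870 at an unadjusted p under 0.05.

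The number of called IDs rested on single libraries. It was 0 without replicate 1 of days 21 to 24 and 0 without replicate 2 of that window, where edgeR still gave 2280 and 1872 IDs at an unadjusted p under 0.05. In those fits the lone library of days 21 to 24 is assumed to vary like the other windows. It was 16, 13 and 104 without replicates 1, 2 and 3 of days 16 to 18, and 30 and 15 without replicates 2 and 4 of days 10 to 14. DESeq2's Wald test on the same model called 473 IDs, 160 higher and 313 lower, and 54 of the 55 IDs were among them. A fit of only the 9 libraries with the window as a factor called 37 IDs, 16 higher and 21 lower, of which 15 were among the 55. A fit of the same libraries as 2 sides called 18 IDs, of which 6 were among the 55, and its balance turned to 11 higher and 7 lower.

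**Figure D1:**
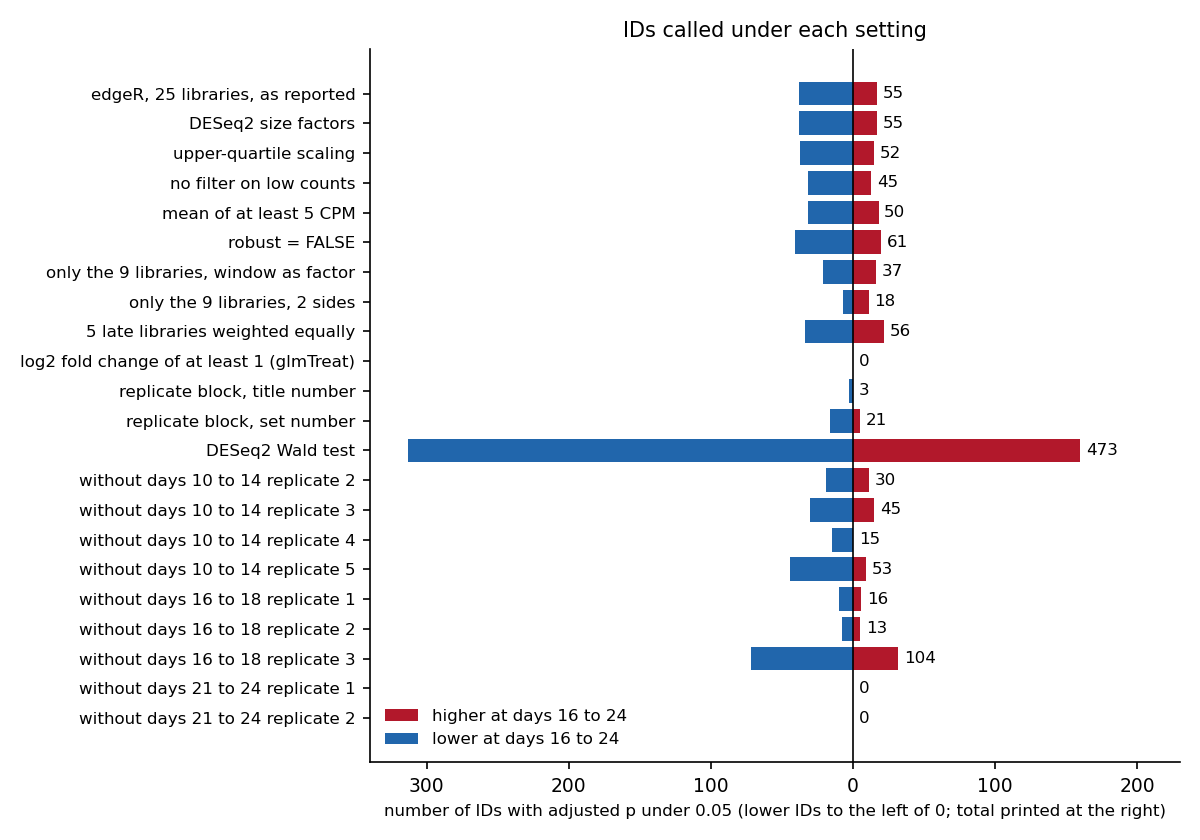
Number of gene IDs with an adjusted p under 0.05 for days 16 to 24 against days 10 to 14 under each setting, with IDs higher at days 16 to 24 drawn to the right of 0, lower ones to the left, and the total printed beside each bar. The number ranges from 0 without either library of days 21 to 24 to 473 with DESeq2, against 55 as reported.

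All 17 IDs that rose had a fitted value above days 10 to 14 in each of the late windows. The median log2 difference from days 10 to 14 was 2.01 for days 16 to 18 and 2.67 for days 21 to 24. The difference was larger at days 21 to 24 for 11 of them and at least as large at days 16 to 18 for the other 6. The call gave both late windows the same weight although days 21 to 24 held fewer libraries. This order may therefore follow in part from the call, and its share over all IDs is not given. In 15 of the 17, every library of days 16 to 24 lay above every library of days 10 to 14, and in the remaining 2, 4 of the 5 late libraries did. Over all IDs tested, 493 (2.05%) had such separate libraries in the upward direction. The same libraries chose the 17 IDs, so their separation follows in part from the call. One of the 17 had at most 3 counts in each library of days 10 to 14, and 15 had a mean of at least 10 CPM at days 16 to 24.

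MSTRG.4693 had the smallest p among IDs that rose by at least 1 on the log2 scale with separate libraries and a mean of at least 10 CPM. It stood at 342, 188 and 254 CPM at days 16 to 18 and at 1128 and 1356 CPM at days 21 to 24, against 102, 119, 62.7 and 43.5 CPM at days 10 to 14. The lowest late library exceeded the highest library of days 10 to 14, and both libraries of days 21 to 24 stood above all 3 of days 16 to 18. It averaged 654 ± 546 CPM (SD) over the 5 libraries of days 16 to 24, against 81.8 ± 34.7 CPM (SD) over the 4 of days 10 to 14. The ratio of these means was 7.99 and the fitted log2 fold change was 2.80, with an edgeR adjusted p of 0.0172. Taken alone, days 21 to 24 differed from days 10 to 14 by 3.92 on the log2 scale (edgeR adjusted p 0.00221), whereas the difference of days 16 to 18 was 1.68 (edgeR adjusted p 0.326).

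The second ID chosen in this direction, MSTRG.26027, showed the same arrangement of libraries. Its values were 173, 203 and 127 CPM at days 16 to 18 and 470 and 550 CPM at days 21 to 24, against 37.7, 56.5, 45.9 and 26.9 CPM at days 10 to 14. No late library came below the libraries of days 10 to 14, and the 2 of days 21 to 24 were again the highest. It averaged 305 ± 191 CPM (SD) over the 5 libraries of days 16 to 24, against 41.8 ± 12.5 CPM (SD) over the 4 of days 10 to 14. The fitted log2 fold change was 2.81, with an edgeR adjusted p of 0.0178. Leaving out replicate 1 of days 21 to 24 gave both IDs an edgeR adjusted p of 0.0671, and leaving out replicate 2 gave 0.0885. It also exceeded 0.05 when replicate 4 of days 10 to 14 was left out. Over the 21 alternatives run, the lowest adjusted p came from DESeq2's Wald test, 1.26e-07 for MSTRG.4693 and 3.92e-07 for MSTRG.26027. The highest came from edgeR fits, 0.213 for MSTRG.4693 and 0.162 for MSTRG.26027. Their log2 fold changes lay between 2.58 and 3.05.

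All 38 IDs that fell had a fitted value below days 10 to 14 in each of the late windows. Their median log2 difference from days 10 to 14 had a size of 1.37 for days 16 to 18 and of 2.66 for days 21 to 24. The difference was larger at days 21 to 24 for 32 of the 38. For 15 of them the difference at days 16 to 18 was under 50% of that at days 21 to 24. As for the IDs that rose, this order may follow in part from the call, and its share over all IDs is not given. In 29 of the 38, every late library lay below every library of days 10 to 14, while 425 of all IDs tested (1.77%) had separate libraries in this direction. In 7 of the other 9 a single late library overlapped with days 10 to 14. Here too the separation follows in part from the call. Of the 38 IDs, 2 had at most 3 counts in every library of days 16 to 24, and 21 had a mean of at least 10 CPM at days 10 to 14.

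MSTRG.13106 had the smallest p of all IDs tested. Its values were 12.1, 10.9 and 7.35 CPM at days 16 to 18 and 15.2 and 11.4 CPM at days 21 to 24, against 62.1, 69.6, 74.3 and 49.5 CPM at days 10 to 14. The late libraries of both windows lay in one range, far below all 4 libraries of days 10 to 14. It averaged 11.4 ± 2.82 CPM (SD) over the 5 libraries of days 16 to 24, against 63.9 ± 10.8 CPM (SD) over the 4 of days 10 to 14. The fitted log2 fold change was -2.46, with an edgeR adjusted p of 0.00206. The log2 difference from days 10 to 14 was -2.66 for days 16 to 18 (edgeR adjusted p 0.0184) and -2.26 for days 21 to 24 (edgeR adjusted p 0.0284). The difference of 0.39 on the log2 scale between days 21 to 24 and days 16 to 18 did not pass (edgeR adjusted p 0.918).

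MSTRG.14311 followed it in order of p. It had 4.19, 5.94 and 5.57 CPM at days 16 to 18 and 1.83 and 2.04 CPM at days 21 to 24, against 14.7, 7.51, 14.5 and 11.3 CPM at days 10 to 14. The libraries of days 21 to 24 were the lowest of the 9, and replicate 3 of days 10 to 14 came nearest to the late ones. It averaged 3.91 ± 1.92 CPM (SD) over the 5 libraries of days 16 to 24, against 12.0 ± 3.36 CPM (SD) over the 4 of days 10 to 14. The fitted log2 fold change was -1.91, with an edgeR adjusted p of 0.00206. The difference from days 10 to 14 was -1.20 on the log2 scale at days 16 to 18 (edgeR adjusted p 0.197) and -2.62 at days 21 to 24 (edgeR adjusted p 0.00223), and the difference of -1.43 between the late windows did not pass (edgeR adjusted p 0.236). Without replicate 1 of days 21 to 24, the edgeR adjusted p was 0.0532 for MSTRG.13106 and 0.0543 for MSTRG.14311, and it was 0.0885 for both without replicate 2. It stayed under 0.05 when any other library was left out. Over the 21 alternatives, the lowest adjusted p came from DESeq2's Wald test, 2.08e-09 for MSTRG.13106 and 3.06e-08 for MSTRG.14311. The highest came from an edgeR fit, 0.162 for MSTRG.13106 and 0.259 for MSTRG.14311.

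**Figure D2:**
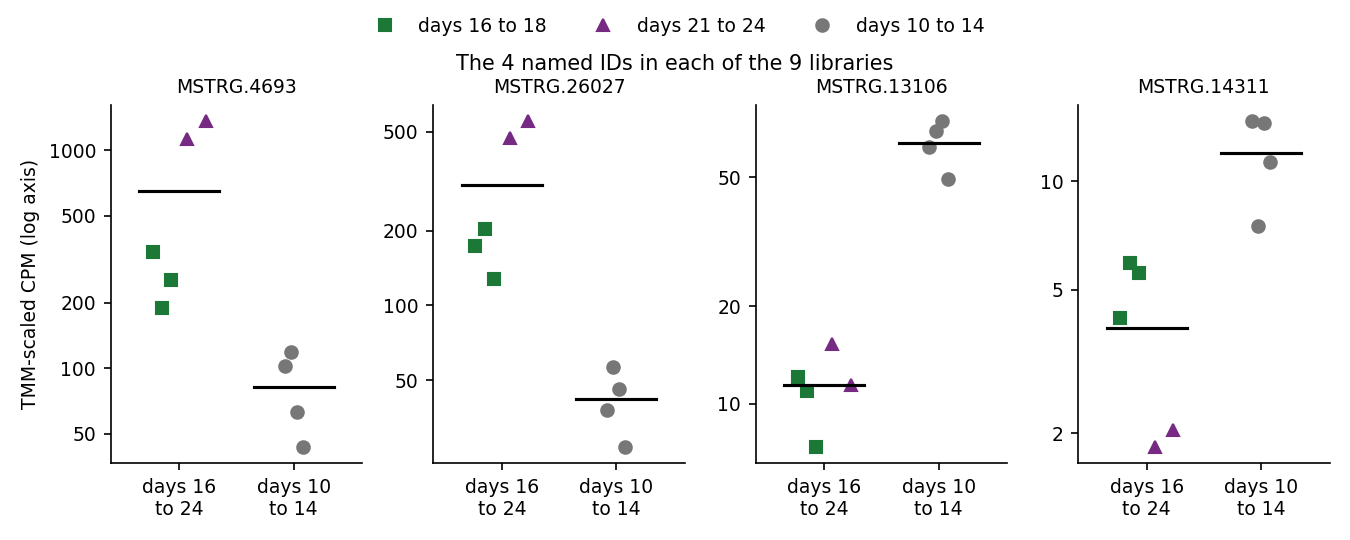
CPM of the 4 named IDs (log axis, TMM-scaled totals) in each of the 9 libraries, days 16 to 24 at the left and days 10 to 14 at the right of each panel; squares are days 16 to 18, triangles days 21 to 24, circles days 10 to 14, and bars the mean of a side. The sides do not overlap for any of the 4 IDs, and for MSTRG.4693 the triangles stand at 1128 and 1356 CPM.

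Set apart, the late windows gave different numbers of calls against the same 4 libraries of days 10 to 14. For days 21 to 24 it was 93 IDs (0.388% of those tested), 58 higher (0.242%) and 35 lower (0.146%), with sizes of 0.95 to 8.88 on the log2 scale. For days 16 to 18 it was 3 IDs (0.0125%), 2 higher and 1 lower, the last being MSTRG.13106. The 93 calls became 22 and 4 without replicates 1 and 2 of days 21 to 24 and 24 without replicate 4 of days 10 to 14. The 3 calls became 22 without replicate 3 of days 16 to 18, 0 without either of the other libraries of that window, and 0 without replicate 2, 3 or 4 of days 10 to 14. Where it was 0, edgeR gave 930 to 1757 IDs at an unadjusted p under 0.05. DESeq2 called 465 IDs for days 21 to 24, with the balance turned to 190 higher and 275 lower, and 93 for days 16 to 18, 37 higher and 56 lower. At an unadjusted p under 0.05, edgeR had 1294 higher and 1568 lower IDs for days 21 to 24. The difference between both windows, tested in the same edgeR model, passed for 11 IDs (0.0458%), 9 higher and 2 lower at days 21 to 24, and it did not pass for any of the 17 IDs that rose or for 37 of the 38 that fell. These 11 IDs became 0 when replicate 2 of days 21 to 24 was left out, with 779 at an unadjusted p under 0.05 in edgeR. They became 7 when replicate 1 of that window was left out, 4, 3 and 4 when replicates 1, 2 and 3 of days 16 to 18 were, and 17 when replicate 5 of days 10 to 14 was. DESeq2 gave 81.

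The libraries of days 10 to 14 were as far from one another as from the juvenile-like stages. Distance was taken as the root mean square difference of log2 CPM over the 21500 IDs that passed the filter in the 9 libraries. The 10 pairs within days 16 to 24 averaged 0.859, the 6 pairs within days 10 to 14 averaged 1.06, and the 20 pairs that crossed sides averaged 1.03. The closest late pair was replicates 1 and 2 of days 16 to 18, at 0.585, followed by the libraries of days 21 to 24, at 0.663. Pairs share libraries, so these distances carry no test.

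Within days 10 to 14 the distances were uneven. Replicates 2 and 3 lay 0.803 apart and replicates 4 and 5 lay 0.988 apart, whereas the 4 pairs across those couples measured 1.12, 1.12, 1.18 and 1.16. For 6 of the 9 libraries the nearest library was of its own window. The exceptions were replicate 3 of days 16 to 18 and replicate 4 of days 10 to 14, nearest to each other at 0.845, and replicate 5 of days 10 to 14, nearest to replicate 2 of days 16 to 18 at 0.931. Replicate 3 of days 16 to 18 and replicate 4 of days 10 to 14 also carry the same sample set number, 3, in the labels. Over all IDs, their deviations from their window means had a correlation of 0.405, the highest among the 7 pairs with the same set number. The part of that number in their distance was not tested.

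**Figure D3:**
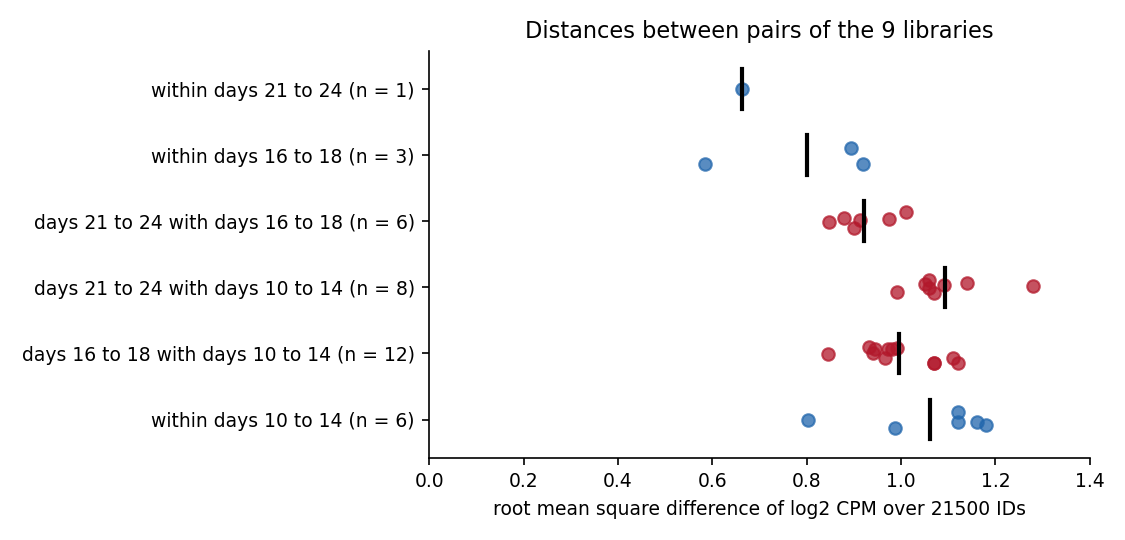
Root mean square difference of log2 CPM for each of the 36 pairs of the 9 libraries, by kind of pair; blue points are pairs of 1 window, red points pairs of different windows, and bars the mean of a kind. Pairs within days 10 to 14 reach 1.18 and overlap with the pairs that join them to the late windows, while pairs within 1 late window stay at 0.920 or below.

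The spread on each side followed the same pattern. The biological coefficient of variation, the square root of edgeR's common dispersion, was 29.6% for days 16 to 24 with the window as a factor, 31.4% for days 16 to 18 and 24.8% for days 21 to 24, against 46.3% for days 10 to 14. The median SD of log2 CPM over IDs was 0.359 for the 5 late libraries as one group and 0.446 for days 10 to 14. The SD was larger at days 10 to 14 for 13736 of the 21500 IDs (63.9%), which are not independent of one another. With 3, 2 and 4 libraries, the difference in spread was not tested.

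Side accounted for 19.7% of the variance of log2 CPM among the 9 libraries over the 1000 most variable IDs, against a median of 12.8% over all arrangements of 5 against 4 libraries (one-sided exact permutation test, p = 0.0952, where the smallest possible is 0.00794). Over all IDs the share was 19.3% (exact permutation p = 0.0397). On the first 4 principal components, which held 31.1%, 21.5%, 19.8% and 12.7% of the variance, the scores of both sides overlapped, and side made up at most 33.0% of the variance of a component.

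On a scale whose ends were set by earlier libraries, however, the sides did not overlap. An axis was drawn through the mean of days 1 and 2, given the value 0, and the mean of days 6 to 8, given the value 100, over all 23995 IDs, and each of the 9 libraries was projected on it. The libraries of days 16 to 18 stood at 120.1, 118.2 and 116.6 and those of days 21 to 24 at 121.9 and 119.8, against 103.2, 105.2, 112.9 and 112.4 at days 10 to 14. The late libraries thus lay further along the direction of the first week, within a narrow range. The mean position was 119.3 ± 2.04 (SD) over the 5 libraries of days 16 to 24, against 108.4 ± 4.94 (SD) over the 4 of days 10 to 14. The difference was 10.9 (two-sided exact permutation test, p = 0.00794, the smallest that 5 against 4 libraries allow). The late windows themselves averaged 120.9 for days 21 to 24 and 118.3 for days 16 to 18. With the axis begun at days 3 to 4 in place of days 1 and 2, the difference was 13.5 and did not pass (exact permutation p = 0.127). The axis was chosen after earlier results of these data were known.

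**Figure D4:**
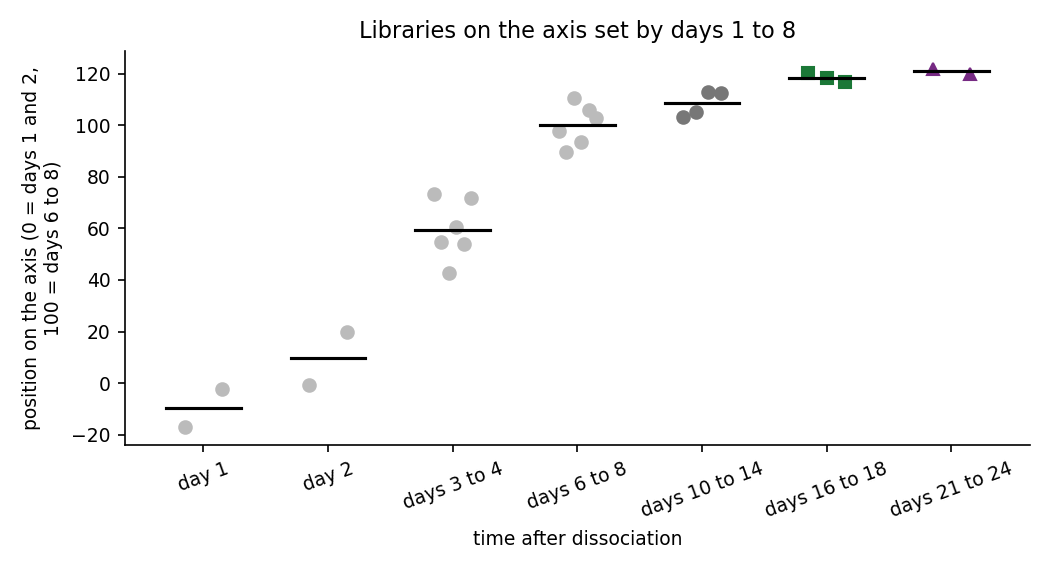
Position of each regenerating library on the axis from the mean of days 1 and 2 (0) to the mean of days 6 to 8 (100), by time window, with bars at window means; the libraries of days 1 to 8, in light grey, define the axis or lie along it. The 5 late libraries stand between 116.6 and 121.9, and the 4 libraries of days 10 to 14 between 103.2 and 112.9.

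The called IDs were then followed through the 16 libraries of days 1 to 8, which are on neither side of the contrast but share in the filter and the dispersion of the fit. The median level of the 17 IDs that rose was 23.7 to 41.3 CPM in the late libraries and 9.46 to 11.5 CPM at days 10 to 14, and it was 2.97 to 12.6 CPM in the libraries of days 1 to 8. No earlier library reached the late level. All 17 IDs had their highest window mean in one of the late windows, against 34.9% of all IDs tested, and 12 had their lowest at day 1 or day 2, against 43.9% of all IDs. Since the late libraries chose these IDs, their high rank is in part set by that choice. It also all but keeps their lowest window out of the late ones, where 34.7% of all IDs had theirs. The 43.9% is therefore not a like background, and no excess at day 1 or day 2 is read from it. In the comparison of days 6 to 8 with days 1 and 2, where 36.8% of IDs were called, 6 of the 17 rose (17.8% of all IDs did) and 0 fell (19% of all IDs did).

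The median level of the 38 IDs that fell was 1.71 to 4.61 CPM in the late libraries and 9.25 to 18.0 CPM at days 10 to 14, and it was 9.70 to 21.1 CPM in the 16 libraries of days 1 to 8. All 38 had their lowest window mean in a late window, 31 of them at days 21 to 24, against 34.7% of all IDs with their lowest in a late window. As the late libraries chose these 38 IDs, that low rank is in part set by the choice. Their highest window was day 1 or day 2 for 21 IDs, against 43.2% of all IDs, and a window between days 3 and 14 for 17. The same choice all but keeps their highest window out of the late ones, where 34.9% of all IDs had theirs. The 43.2% is therefore not a like background, and no excess at day 1 or day 2 is read from it. In the comparison of days 6 to 8 with days 1 and 2, 10 of the 38 fell (26.3%, against 19% of all IDs), 5 rose (13.2%, against 17.8%) and 23 did not pass.

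The named IDs differed in this early course. MSTRG.4693 averaged 66.6 ± 37.8 CPM (SD, n = 6) at days 6 to 8, and 8.49 and 52.5 CPM at day 1 and day 2 (n = 2 each), a log2 difference of 1.65 (edgeR adjusted p 0.00475). MSTRG.26027 averaged 37.2 ± 18.7 CPM (SD, n = 6) at days 6 to 8, with 2.83 and 16.1 CPM at day 1 and day 2, a log2 difference of 2.44 (edgeR adjusted p 0.000359). Both IDs were thus also higher at days 6 to 8 than at the mean of days 1 and 2. For MSTRG.4693, however, the day 2 libraries (33.2 and 71.8 CPM) lay within the range of days 6 to 8 (30.6 to 103 CPM). For MSTRG.26027 they (9.72 and 22.5 CPM) lay below that range (23.7 to 72.3 CPM). MSTRG.13106 averaged 68.3 ± 22.1 CPM (SD, n = 6) at days 6 to 8, and 149 and 129 CPM at day 1 and day 2. It was lower at days 6 to 8 by 1.02 on the log2 scale (log2 difference -1.02, edgeR adjusted p 0.00897). Its day 2 libraries were split, with replicate 1 at 170 CPM and replicate 2 at 88.4 CPM. The latter lay within the range of days 6 to 8 (35.1 to 96.7 CPM). For MSTRG.14311 the difference of 0.57 over the same interval did not pass (edgeR adjusted p 0.0666), with 12.7 ± 4.20 CPM (SD, n = 6) at days 6 to 8.

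The adult library, made from the dissociated cells of a whole sponge, has no replicate. The 17 IDs that rose had a median of 7.11 CPM there and the 38 that fell a median of 10.97 CPM, on its unscaled total. Per ID, the median log2 difference of the adult library was -2.35 from days 16 to 24 and -0.61 from days 10 to 14 for the IDs that rose, with 0.5 CPM added. For the IDs that fell it was 0.80 from days 16 to 24 and -0.70 from days 10 to 14. Over all IDs tested it was -0.34 and -0.32. The libraries of both sides chose the called IDs, so the gap between the values of a set follows in part from the call. MSTRG.4693 had 144 CPM, MSTRG.26027 had 44.7 CPM, MSTRG.13106 had 129 CPM and MSTRG.14311 had 4.74 CPM in that library. The difference between the adult library and either side was not tested.

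**Figure D5:**
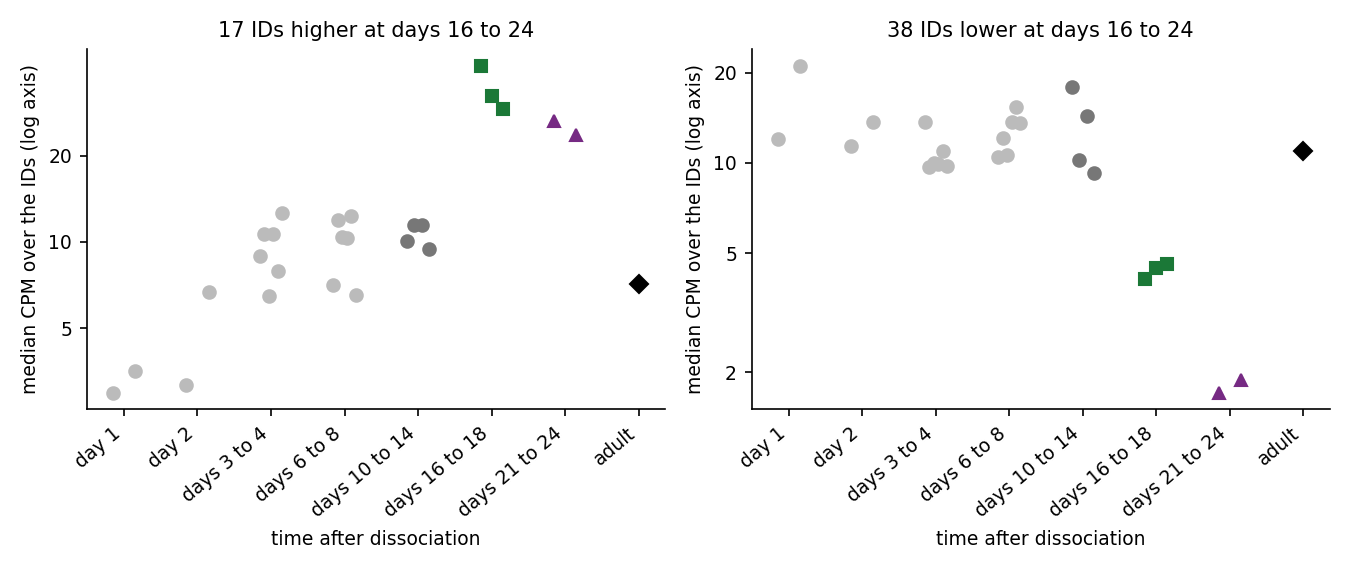
Median CPM (log axis) over the 17 IDs that rose (left) and the 38 that fell (right) in each library, by time window, with the adult library as a black diamond; colours of the last 3 windows are those of the plot of named IDs. The late libraries lie at 23.7 to 41.3 CPM in the left panel and at 1.71 to 4.61 CPM in the right panel, outside the range of all earlier libraries and of the adult library.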

How the data were processed

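Libraries were made from Trizol-extracted RNA with the Lexogen SENSE mRNA-Seq kit, per the labels' protocols. The deposited values are raw read counts per gene ID, 1 file per library. The submitters' processing notes name Trimmomatic 0.36, HISAT2, StringTie, featureCounts, DESeq2 and Bowtie2, without their order or role; genome build, gene models and strand setting are not given in the sources used here. Overlapping or near-identical IDs can share reads.

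Groups followed the day labels and replicate numbers the titles, which number days 10 to 14 from 2 to 5 where the set labels number them from 1 to 4. The test was edgeR 4.0.16 under R 4.3.3 with limma 3.58.1 (glmQLFit with robust = TRUE after filterByExpr and TMM, two-sided) on 25 regenerating libraries and 7 windows, keeping 23995 IDs and leaving out 11312; the common dispersion was 0.173. CPM uses TMM-scaled totals, and log2 CPM a prior count of 2. SDs over libraries stand in for standard errors, which the F test lacks. Named IDs were the 2 smallest p in each direction among calls of at least 1 in absolute log2 fold change, with separate libraries and a mean of 10 CPM or more on the side where they were higher. No library was a repeat of another: chi-square per ID was at least 15.0 in all 10 same-window pairs (IDs with at least 20 counts). On simulated counts for 23221 IDs, the test found 157 of 200 IDs changed by 2 log2 units in this comparison (78.5%). That share holds for the simulated settings only and does not measure how many real changes were found. Calls among the unchanged simulated IDs are not given. Among the real libraries, those of days 10 to 14 had a common dispersion of 0.214, above that of the fit. Figures used Python 3.11.15 and matplotlib 3.10.9; DESeq2 1.42.0 was an alternative. The comparison, its rules and its alternatives were chosen with earlier results of these data known.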

Additional observations from a re-analysis of the deposited data

Results flagged for a closer look

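Replicate 2 of days 21 to 24 had 15395912 counts, and the other 4 late libraries had 11863223 to 12728111, a gap past Dixon's critical value. It was the only such gap in 22 sets of values, and chance gives about 1 in 20. The change from days 10 to 14 differed between days 21 to 24 and days 16 to 18 for 11 IDs (edgeR adjusted p under 0.05 for the difference itself), 9 higher and 2 lower at days 21 to 24, and for 0 when that library was left out (779 at an unadjusted p under 0.05; DESeq2 with all libraries gave 81).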

How the results depend on the processing

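The 55, 3 and 93 calls of days 16 to 24, days 16 to 18 and days 21 to 24 against days 10 to 14 stayed within 1.5 times under DESeq2's size factors, upper-quartile scaling and non-robust fits, and the 55 and 3 also under other count filters. With no filter the 93 were 61, and with a mean of at least 5 CPM 55. Under this last filter days 16 to 24 had 50 calls, of which 37 were among the 55 as reported, so the number held better than the IDs. A fit of the 9 libraries by window gave 6 for days 16 to 18 and 47 for days 21 to 24, and the fit as 2 sides gave 18 in place of 55. A test against a log2 fold change of 1 (glmTreat) gave 0, with 870 IDs at an unadjusted p under 0.05. DESeq2 gave 473, 93 and 465. Without 1 library each, the ranges were 0 to 104, 0 to 22 and 4 to 96, and 0 of the 55 IDs were kept in all 9 such fits. Leaving out a library of days 10 to 18, 8 IDs, all lower, were kept in all 7 fits.

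With the replicate number of the titles as a block the calls were 3, 1 and 17, and with the set number 21, 0 (1586 IDs at an unadjusted p under 0.05) and 58. By title number, 0 of 5 same-numbered pairs had a correlation of deviations over 0.1, against 8 of 21 other pairs. By set number 3 of 7 did, with a range of -0.187 to 0.405, against 5 of 19 other pairs. The mean correlation by set number was 0.0709 for same-numbered pairs and -0.0258 for others. By title number it was -0.0769 and 0.0186. Neither numbering met the rule that every pair exceed 0.1, so neither was taken to pair the libraries, and what the set number carries was not tested.

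The 11 IDs called for days 21 to 24 against days 16 to 18 were 81 with DESeq2 and 0 to 17 without 1 library each, alternatives chosen after seeing the data. The variance share was 19.3% over all IDs (exact permutation p = 0.0397) and 18.4% to 24.5% without 1 library each (exact permutation p = 0.0536 to 0.229, the highest without either library of days 21 to 24). The axis difference was 13.5 with the axis begun at days 3 to 4 (exact permutation p = 0.127), 13.2 among IDs of at least 5 CPM and 9.14 to 12.4 without 1 library each. No direction reversed for the 4 named IDs. The cause of these changes was not tested. Counts limit precision for scarce IDs, and the 2 libraries of days 21 to 24 limit the comparisons that hold that window.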

Other observations

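Calls were spread over all levels of expression. Among IDs with a mean of at least 100 CPM in the 9 libraries, 3 rose and 4 fell of 1415 tested (0.495%). Between 10 and 100 CPM, 8 rose and 13 fell of 7972 (0.263%), and between 1 and 10 CPM, 6 rose and 14 fell of 9122 (0.219%). Under 1 CPM, 0 rose and 7 fell of 5486 (0.128%). Few IDs were nearly absent on one side: 16 IDs with a mean of at least 1 CPM at days 16 to 24 had at most 3 counts in every library of days 10 to 14, and 30 IDs with a mean of at least 1 CPM at days 10 to 14 had at most 3 counts in every late library.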
